A study of Mus musculus with 41 samples.

Results

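The 42 genes described here work in DNA repair and in the response to replication stress, and were chosen by symbol from the 47480 genes measured. RNA levels were followed across 41 tumors of the mouse mammary gland, of which 28 lacked both Plk2 and p53 (Plk2-/-; p53-/-) and 13 lacked p53 alone (p53-/-). All tumors arose on the Balb/c background from epithelium without p53, were grown untreated in the mammary glands of syngeneic hosts, and could have been passed serially between mice. The Plk2-/-; p53-/- tumors came from mammary epithelial cells transplanted into the cleared fat pads of wild-type recipients, and Plk2 and p53 were missing from the germline of the donor mice, so no promoter or Cre limited the loss to one cell type. The study names 3 of the 28 as claudin-low (PLK2null-732, PLK2null-733 and PLK2null-743), and the p53-/- tumor T11 is also claudin-low. A ROSEN number stands in the title of each of the 13 p53-/- libraries and in none of the 28 others, so the genotype and the set of libraries cannot be told apart. The labels do not say which tumors descend from one another, so p-values measure the spread between these tumors and may treat related tumors as separate.

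Homologous recombination copies the sister chromatid to mend a double-strand break, and BRCA1, PALB2 and BRCA2 act together in it. The Fanconi anemia proteins hand crosslinked DNA to the same machinery. ATM answers broken DNA and ATR answers stalled replication forks, and both signal through CHEK2, CHEK1 and WEE1 to hold the cell cycle. PLK2 is a polo-like kinase, and the tumors compared here lack p53, a main target of the ATM and ATR signal.

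Values are estimated gene counts that the authors scaled so that the upper quartile of each tumor's nonzero genes is 1000. The depth was 31910250 to 53244728 fragments in the Plk2-/-; p53-/- tumors and 29409609 to 70868124 in the p53-/- tumors. A floor of 3 reads was worth 1.16 to 2.45 units, which covers counting error only, and all 42 genes lay above it in every tumor. Plk2 ranged from 36.6 to 553 in the Plk2-/-; p53-/- tumors, with a median of 284, and from 186 to 8028 in the p53-/- tumors, with a median of 3402. The difference was -3.39 on the log2 scale (limma, adjusted p = 1.3e-09), and a single p53-/- tumor, p53null-7435, lay inside the range of the knockouts. Trp53 was read at 1563 to 3914 in the Plk2-/-; p53-/- tumors and at 349 to 5035 in the p53-/- tumors, so RNA of the disrupted gene was counted in both. A gene is called where the Benjamini-Hochberg adjusted p over all genes tested was under 0.05.

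Promoter sequence is shown for the genes that carry one motif recognized by E2F, the transcription factor family that drives many genes of S phase. RefSeq promoters (GRCm38.p6, from 250 bases before to 50 after the start of the gene) matched 36 of the 42 genes. The letters TTTCCCGC, or GCGGGAAA on the other strand, were in the promoters of 8 of these 36 genes, or 22.2%, and in 1.24% of 27025 symbols. The 30-base windows below hold the match in capitals, read 5′ to 3′ on the strand of the gene.
Brca2 (chr5:150522442-150522471, plus strand): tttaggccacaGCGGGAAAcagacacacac
Bard1 (chr1:71103163-71103192, minus strand): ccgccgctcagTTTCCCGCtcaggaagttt
Rad51c (chr11:87404941-87404970, minus strand): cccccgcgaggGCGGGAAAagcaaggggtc
Fancg (chr4:43010335-43010364, minus strand): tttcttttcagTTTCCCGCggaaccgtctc
Chek2 (chr5:110839820-110839849, plus strand): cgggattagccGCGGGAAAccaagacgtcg
Mdc1 (chr17:35841471-35841500, plus strand): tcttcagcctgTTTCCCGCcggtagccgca
Msh6 (chr17:87975054-87975083, plus strand): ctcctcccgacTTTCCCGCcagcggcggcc
Xrcc6 (chr15:82016312-82016341, plus strand): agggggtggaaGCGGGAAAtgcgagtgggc
Of these 8 genes, Brca2, Rad51c and Mdc1 were called higher in the Plk2-/-; p53-/- tumors, and Fancg and Msh6 were called higher in the claudin-low ones. In the same 2 comparisons 22 and 6 of the 42 genes were called higher, and 24.3% and 20.2% of all genes tested. Whether the motif goes with the calls was not tested. The CCAAT letters, or ATTGG, were in 20 of the 36 promoters against 41.1% of all symbols, and GGGCGG, or CCGCCC, in 24 of the 36 against 38.2%. A match describes the letters of the window and is not a bound site.

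Most of the 42 genes had higher fitted values in the Plk2-/-; p53-/- tumors than in the p53-/- tumors, and Atm, Brip1 and Mdc1 had the largest differences. The comparison sets tumors that lack Plk2 and p53 against tumors that lack p53 alone, and the set of libraries differs along with the genotype. In limma on log2(value + 1), 22 of the 42 genes were called higher, where 24.3% of the 17208 genes tested were called higher, and 4 were called lower, where 15.3% were. The median log2 fold change was 0.43 over the 42 genes and 0.10 over all genes tested. Without p53null-7435, the p53-/- tumor with low Plk2, 23 of the 42 genes were called higher and 1 lower, Atrip, so the calls of Rad51b, Fancc and Xrcc1 rest on that tumor. None of the 42 genes had groups that did not overlap, where 1.12% of genes did upward and 0.227% downward. Markers of fat and muscle moved with the genotype: 4 of 6 skeletal muscle markers were called lower, with a summed level of 32.4 to 3400 in the Plk2-/-; p53-/- tumors and 55.8 to 41082 in the p53-/- tumors. Of 5 adipocyte markers tested 2 were called lower, with sums of 227 to 124699 and 389 to 3443. Their part in the differences of the 42 genes was not tested. Under a median of ratios scaling the median of all genes was -0.01, the calls over all genes were 3415 higher and 3458 lower in place of 4175 and 2627, and those among the 42 genes were 19 and 5.

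**Figure D1:**
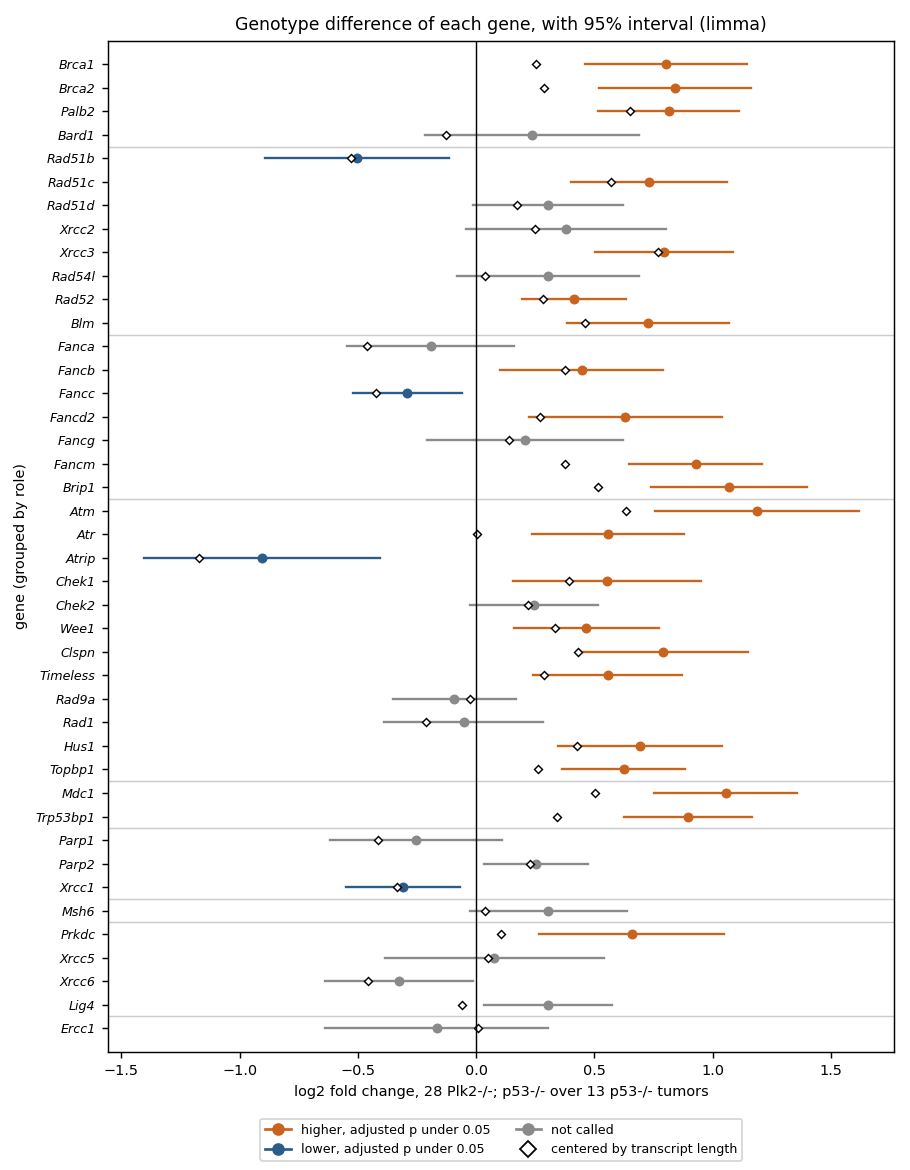
Log2 fold change of each of the 42 genes, 28 Plk2-/-; p53-/- tumors over 13 p53-/- tumors, with the 95% interval as a bar, and the estimate after centering genes of like transcript length as an open diamond. Orange points are the 22 genes called higher and blue points the 4 called lower, and most diamonds of the longest genes, such as Brca2, Atr and Prkdc, lie nearer to 0 than their points.

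Transcript length moved with the genotype, and its part in the differences was not tested. Across 16600 genes with an annotated length (GENCODE vM21, GRCm38), the Spearman correlation between the longest transcript and the genotype log2 fold change was 0.31, and over the 42 genes it was 0.65. These correlations are across genes, which are not independent replicates. Over 10 bins of length with equal numbers of genes, the median log2 fold change ran from -0.40 in the shortest genes to 0.55 in the longest. An index of long over short genes (the median deviation of genes above 5000 bases minus that of genes below 1500) ran from -0.11 to 0.39 in the Plk2-/-; p53-/- tumors and from -1.08 to -0.10 in the p53-/- tumors. Among the 21 genes with the longer transcripts 15 were called higher and 1 lower, and among the 21 with the shorter ones 7 and 3. Of all genes with transcripts of at least 4248 bases, the shortest of the longer 21, 37.9% were called higher and 4.22% lower, and of those with shorter ones 18.3% and 19.9%.

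**Figure D2:**
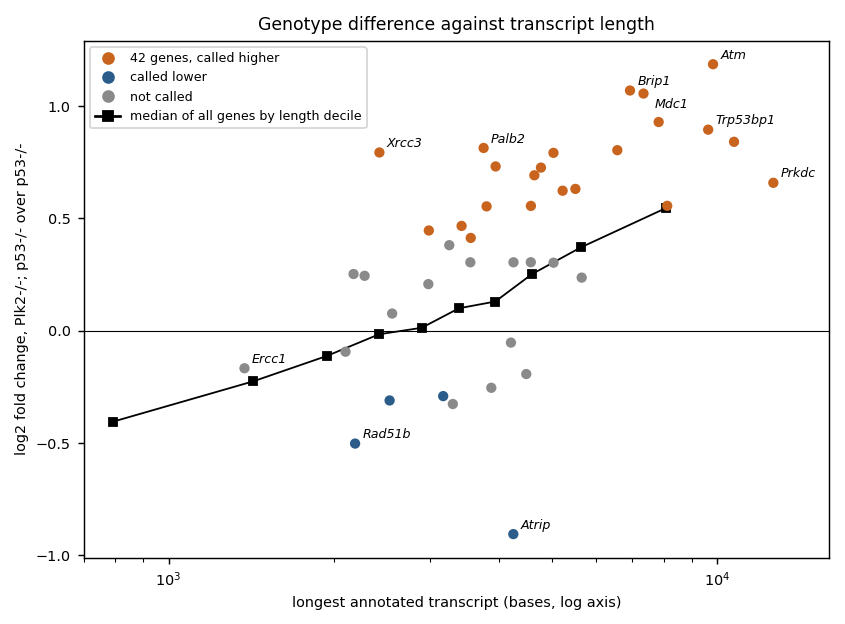
Genotype log2 fold change of the 42 genes (points, colored by call) against the length of the longest annotated transcript on a log axis, with the median of all genes in each of 10 length bins as black squares. The squares climb from -0.40 to 0.55, Xrcc3 and Palb2 stand above those of like length, and Atrip stands below.

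When each tumor was centered within 10 bins of transcript length, an alternative chosen after seeing the data, 12 of the 42 genes were called higher, where 16.5% of genes were, and 6 lower, where 17.3% were. The 10 genes no longer called were Brca1, Brca2, Fancb, Fancd2, Atr, Chek1, Wee1, Timeless, Topbp1 and Prkdc, and Fanca and Xrcc6 were newly called lower. Within the Plk2-/-; p53-/- group, 7 tumors are listed with a latency (PLK2null-7747, PLK2null-7748, PLK2null-7749, PLK2null-7750, PLK2null-7753, PLK2null-7763 and PLK2null-7764). With only these against the 13 p53-/- tumors, 9 genes were called higher, where 11.6% were, and 1 lower, where 5.69% were. The median log2 fold change of the 42 genes was 0.47 in this smaller comparison and 0.43 with all tumors. The calls for 10 genes held under both and with all 41 tumors: Palb2, Xrcc3, Fancm, Brip1, Atm, Clspn, Hus1, Mdc1 and Trp53bp1 higher, and Atrip lower. When centered by length and GC content together, Clspn was not called (0.36, limma, adjusted p = 0.11).

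Both mediators that gather repair factors at a break were called higher, where 24.3% of all genes were. In the bin of the longest transcripts, at least 6536 bases, which holds both genes, 48.4% of all genes were called higher. Mdc1, a scaffold that binds the phosphorylated histone at the break, was 981 at the lowest, 2078 at the median and 3943 at the highest in the Plk2-/-; p53-/- tumors. In the p53-/- tumors these values were 736, 944 and 1311, so 25 of the 28 tumors lay above every p53-/- tumor. Mdc1 was 2.08-fold higher (log2 fold change 1.06 ± 0.15 SE, limma, adjusted p = 2.6e-07), and 0.50 on the log2 scale when centered by length. Trp53bp1, which steers breaks toward end joining, ran from 1912 through a median of 2989 to 4480, against 953, 1733 and 3157. All 28 tumors lay above the p53-/- median, and the log2 fold change was 0.90 ± 0.13 (limma, adjusted p = 8.4e-07).

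Of the 4 core genes of homologous recombination, 3 were called higher, where 24.3% of all genes were. Palb2, which joins BRCA1 to BRCA2, had values of 189, 248 and 426 (lowest, median and highest) in the Plk2-/-; p53-/- tumors and 68.7, 122 and 366 in the p53-/- tumors. Of the 13 p53-/- tumors, 10 lay below all 28 others, and the log2 fold change was 0.81 ± 0.15 (limma, adjusted p = 2.2e-05). Brca2 ran from 248 to 950 with a median of 501, against 126 to 503 with a median of 256. Its log2 fold change was 0.84 (limma, adjusted p = 3.8e-05), and 0.29 with an adjusted p of 0.10 when centered by length. Brca1 ran from 463 to 1600 with a median of 830, against 219 to 931 with a median of 478. The difference of Brca1 was 0.80 on the log2 scale (limma, adjusted p = 0.00019), and 0.25 with an adjusted p of 0.26 when centered by length. Bard1, the partner of BRCA1 in its ubiquitin ligase, was not called (log2 fold change 0.24 ± 0.22, limma, adjusted p = 0.42).

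Of the 8 other recombination genes, 4 were called higher and 1 lower, where 24.3% and 15.3% of all genes were. Xrcc3, which acts in homologous recombination, had values of 208, 292 and 674 against 93.7, 165 and 284, and 17 of the 28 tumors exceeded every p53-/- tumor. Its log2 fold change of 0.79 (limma, adjusted p = 2.4e-05) was 0.77 when centered by length. Rad51c (0.73), the Blm helicase (0.73) and Rad52 (0.41) were also called higher in log2 fold change. Rad51b, the least abundant of the 42 genes per length, ran from 3.74 to 33.1 with a median of 13.4, against 8.76 to 31.8 with a median of 22.5. It was called lower at -0.50 ± 0.19 on the log2 scale (limma, adjusted p = 0.035, and 0.052 without p53null-7435), and its lowest tumor held about 5 reads. Rad51d (0.30), Xrcc2 (0.38) and Rad54l (0.31) were not called.

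The Fanconi anemia pathway had 4 of 7 genes called higher and 1 lower, where 24.3% and 15.3% of all genes were. Brip1, a helicase that binds BRCA1, had values of 223, 378 and 663 against 94.0, 163 and 492, and 10 of the 13 p53-/- tumors lay below all 28. The log2 fold change of Brip1 was 1.07 ± 0.16 (limma, adjusted p = 1.3e-06). Fancm, a translocase that remodels stalled forks, had values of 185, 324 and 523 against 106, 143 and 265. It was higher by 0.93 on the log2 scale (limma, adjusted p = 7.9e-07), and 20 of the 28 tumors exceeded every p53-/- tumor. Fancd2 (0.63) and Fancb (0.45) were called higher, Fancc (-0.29) was called lower, though not without p53null-7435 (limma, adjusted p = 0.077), and Fanca (-0.19) and Fancg (0.21) were not called. Fancc shares chromosome 13 with Plk2.

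Among the 12 checkpoint and fork genes 8 were called higher, where 24.3% of all genes were, and 1 lower, where 15.3% were. Centered by length, 3 of the 12 were called higher and 1 lower. In the ATR arm the kinase was called higher and its partner lower, the kinase only without centering by length. Atm had values of 354, 880 and 1598 against 162, 385 and 824, with 17 of the 28 tumors above every p53-/- tumor. Its log2 fold change of 1.19 ± 0.21 (limma, adjusted p = 1.9e-05) was the highest among the 42 genes. Hus1, a part of the ring-shaped 9-1-1 clamp that marks damaged forks, had values of 364, 648 and 1505 against 289, 413 and 645. It was higher by 0.69 on the log2 scale (limma, adjusted p = 0.0012), while the other clamp genes Rad9a (-0.09) and Rad1 (-0.05) were not called. Clspn, which presents CHEK1 to ATR, had values of 287, 753 and 1391 against 230, 449 and 622 and was higher by 0.79 (limma, adjusted p = 0.00037). Topbp1, the activator of ATR, had values of 2512, 3159 and 4951 against 942, 2127 and 3733, at a log2 fold change of 0.62 (limma, adjusted p = 0.00014). Atr (0.56, and 0.00 when centered by length), Timeless (0.56), Chek1 (0.55) and Wee1 (0.47) were called higher, and Chek2 (0.24) was not. Topbp1, Atr, Timeless, Chek1 and Wee1 were not called when centered by length.

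Atrip, the partner that brings ATR to single-stranded DNA, was lower in the Plk2-/-; p53-/- tumors. It had values of 50.1, 167 and 434, against 186, 286 and 410 in the p53-/- tumors, and 15 of the 28 tumors lay below every p53-/- tumor. The log2 fold change was -0.91 ± 0.25 (limma, adjusted p = 0.0031), and -1.17 when centered by length. Atrip and Atm had the largest spread of the 42 genes over the 41 tumors, with SDs of 0.85 and 0.84 on the log2 scale. Atrip overlaps Trex1 on the same strand, so reads of the shared sequence could have been split between them.

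**Figure D3:**
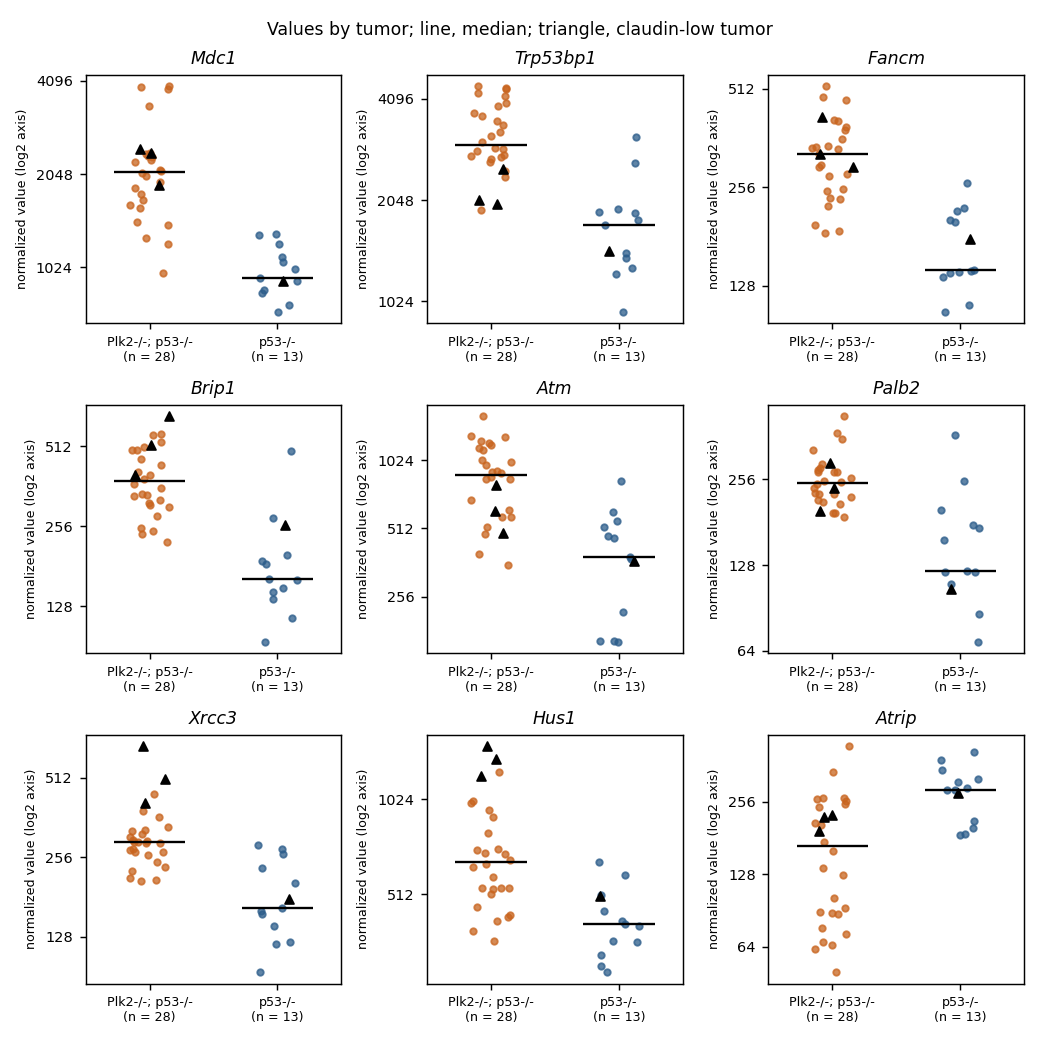
Normalized value of 9 genes in each tumor on a log2 axis, with Plk2-/-; p53-/- tumors on the left (n = 28), p53-/- tumors on the right (n = 13), lines at medians and claudin-low tumors as triangles. For Mdc1, 25 of the 28 tumors on the left lie above all 13 on the right, and 7 of the 13 lie below all 28. Atrip is the gene shown that lies lower in the Plk2-/-; p53-/- tumors, and the claudin-low triangles top the Hus1 and Xrcc3 panels.

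Among the 9 genes of single-strand break, mismatch, end-joining and excision repair, 1 was called higher and 1 lower, where 24.3% and 15.3% of all genes were. Xrcc1, the scaffold of single-strand break repair, ran from 1010.5 to 2122 with a median of 1494, against 1260 to 3843 with a median of 1652. It was called lower at -0.31 on the log2 scale (limma, adjusted p = 0.035, and 0.066 without p53null-7435). When centered by length and GC content together, it was -0.10 (limma, adjusted p = 0.53). Parp1, the sensor of strand nicks, had medians of 3065 and 3025 and was not called (-0.25 ± 0.18), nor was Parp2 (0.25). Prkdc, the kinase of end joining, ran from 185 to 898 with a median of 430, against 141 to 457 with a median of 248. It was called higher by 0.66 (limma, adjusted p = 0.0058), and by 0.11 with an adjusted p of 0.65 when centered by length. The Balb/c strain is known to carry a weak Prkdc allele, which all tumors share. Xrcc5 (0.08), Xrcc6 (-0.33), Lig4 (0.30), the mismatch repair gene Msh6 (0.30) and the excision nuclease gene Ercc1 (-0.17) were not called.

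A further 61 genes of the same pathways gave 16 (26.2%) called higher and 8 (13.1%) lower, close to the 24.3% and 15.3% of all genes, with a median log2 fold change of 0.04. The largest differences upward were Dclre1c (1.63), the end-joining nuclease Artemis, Polq (1.36), the polymerase of theta-mediated end joining, and Ddb2 (1.24), a sensor of ultraviolet damage. Polq had values of 209, 351 and 572 in the Plk2-/-; p53-/- tumors and 52.3, 139 and 220 in the p53-/- tumors (limma, adjusted p = 3.6e-10). The largest downward were Rpa2 (-0.83), which coats single-stranded DNA, Apex1 (-0.78), the base excision endonuclease, and Fen1 (-0.71), the flap nuclease.

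Repair genes are often expressed with the cell cycle, so a score of 15 proliferation genes was set beside them. Its mean over the 28 tumors was 0.01 ± 0.37 (SD) and over the 13 it was -0.01 ± 0.68 (SD), with p = 0.89 in a 2-sided permutation test. Across the 41 tumors the median Pearson correlation of the 42 genes with the score was 0.30. After adjustment over 42 genes, 18 had a positive correlation with p under 0.05 in a permutation test and 0 a negative one. All 18 were positive within each genotype, where the medians over the 42 genes were 0.36 and 0.43. Bard1 had the highest Pearson r, at 0.65 with Spearman rho 0.57 (permutation, adjusted p = 0.00042 and 0.00096), and r was 0.57 without the 2 tumors farthest from the median score. Fancd2 followed at r = 0.61, rho 0.64 and 0.60 without those tumors (permutation, adjusted p = 0.00063 for r and 0.00042 for rho). Mdc1, with the lowest adjusted p by genotype, had r = 0.17 and rho 0.16 (permutation, adjusted p = 0.37 and 0.35), and r was 0.20 without those tumors.

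**Figure D4:**
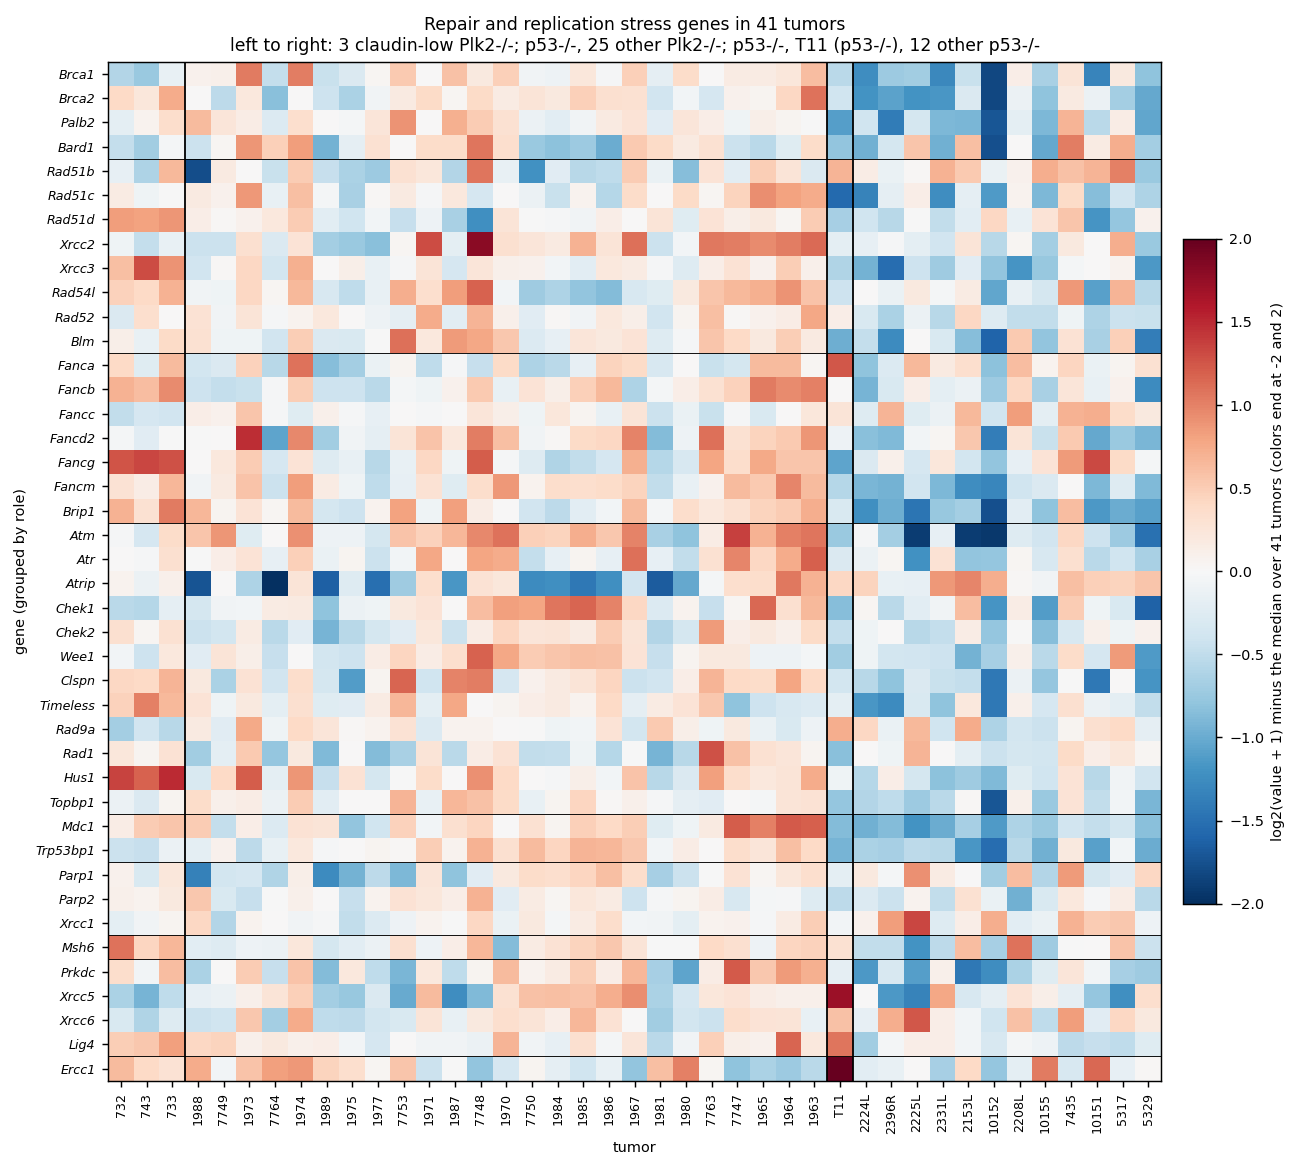
Deviation of log2(value + 1) from the median over 41 tumors for the 42 genes (rows, grouped by role) in each tumor (columns), with claudin-low tumors first in the Plk2-/-; p53-/- block and T11 first in the p53-/- block. The p53-/- block is bluer across recombination and checkpoint genes, and the tumor p53null-10152 is the lowest of 41 for 13 of the 42 genes.

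Single tumors set some of the extremes. The p53-/- tumor p53null-10152, the shallowest library at 29409609 fragments, was the lowest of all 41 for 13 genes, and without it 20 of the 42 genes were called higher and 3 lower. PLK2null-7748 was the highest for 7 genes. Ercc1 reached 5849 in T11, where the next tumor was at 1909. Its 49 measured neighbours within 500 kb had a median deviation of -0.17 on the log2 scale in T11, and 2 of them deviated as far. Ercc1 overlaps Cd3eap on the other strand, and the strand setting of the counting is not given in the sources used here. Xrcc5 reached 2210 in T11, against 1284 in the next tumor. Its 9 neighbours had a median deviation of -0.10 there, and 1 of them deviated as far. Xrcc3, Rad9a, Trp53bp1, Msh6, Fancc, Atr, Rad54l, Fanca and Xrcc6 likewise overlap a gene on the other strand.

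Between the 3 claudin-low Plk2-/-; p53-/- tumors and the 25 others, fewer of the 42 genes were called in each direction than the share over all genes. Hus1 and Fancg had more than 2-fold higher fitted values and Rad9a lower ones. In limma on these 28 tumors, 6 of the 42 genes (14.3%) were called higher, where 20.2% of 17153 genes were, and 4 (9.52%) lower, where 17.1% were. The median log2 fold change was 0.14 over the 42 genes and 0.02 over all genes. The Spearman correlation with transcript length was -0.06 over the 42 genes in this comparison.

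**Figure D5:**
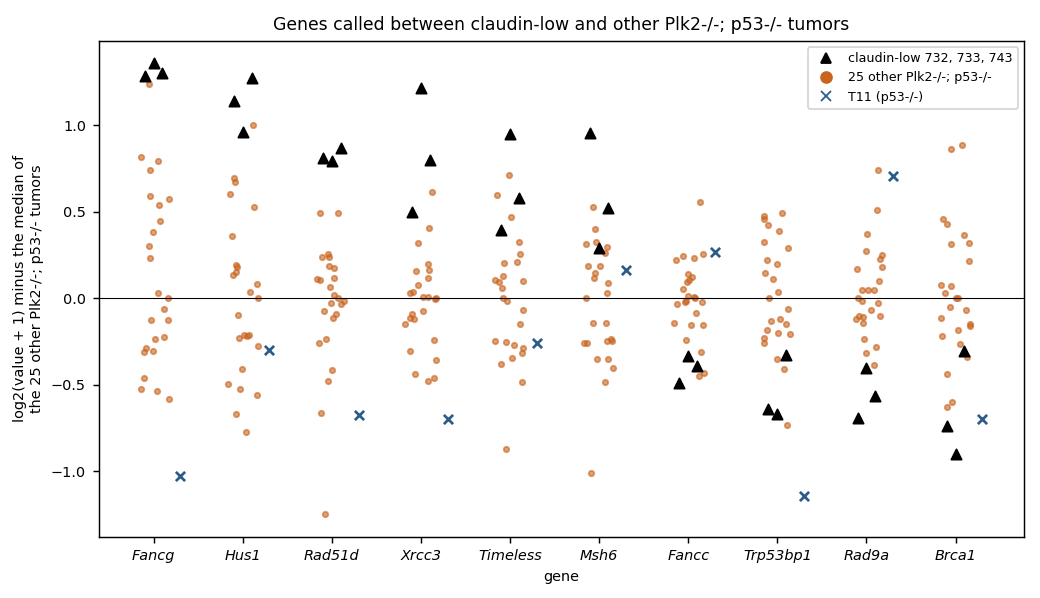
Deviation of log2(value + 1) from the median of the 25 other Plk2-/-; p53-/- tumors for the 10 genes called between these and the claudin-low tumors. Triangles are the 3 claudin-low tumors, orange points the 25 others and crosses T11, and the triangles do not overlap the points for Fancg, Rad51d and Rad9a.

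Of all 42 genes, 2 lay above and 1 below all 25 other tumors without overlap, where 11.1% and 8.87% of all genes tested did. Fancg, a scaffold of the Fanconi core complex, was 689 in PLK2null-732, 697 in PLK2null-733 and 725 in PLK2null-743, and ran from 188 to 667 with a median of 282 in the others. The log2 fold change was 1.20 ± 0.29 (limma, adjusted p = 0.0019). Rad51d, which acts in homologous recombination, was 578, 600 and 570, against 138 to 463 with a median of 328, at a log2 fold change of 0.87 (limma, adjusted p = 0.0027). Rad9a, the clamp subunit that binds TOPBP1, was 436, 475 and 533, against 539 to 1179 with a median of 705, at -0.60 (limma, adjusted p = 0.0062).

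Hus1 and Xrcc3, called in all 15 fits of this comparison, each had 1 of the 25 tumors reaching the claudin-low range. Hus1 was 1373, 1505 and 1211, against 364 to 1248 with a median of 622, at a log2 fold change of 1.13 ± 0.27 (limma, adjusted p = 0.0018). Xrcc3 was 411, 506 and 674, against 208 to 444 with a median of 290, at 0.87 (limma, adjusted p = 0.00033). Timeless, which holds the fork to its helicase, was 1050, 1194 and 1540, against a median of 798, at 0.66 (limma, adjusted p = 0.020). Msh6, the mismatch sensor, was 3291, 2436 and 2078, against a median of 1697, at 0.64 (limma, adjusted p = 0.021).

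Brca1 was 518, 700 and 463, against 560 to 1600 with a median of 865, and was called lower at -0.68 (limma, adjusted p = 0.024). Trp53bp1 was 2044, 2539 and 1999, against a median of 3182, at -0.57 (limma, adjusted p = 0.026). Fancc was 202, 216 and 225, against a median of 284, at -0.40 (limma, adjusted p = 0.035). Brca1 in 2 of the 3 tumors and Fancc in PLK2null-732 lay below all 25 others, and the remaining values of these 3 genes lay within the range of the others. Brca2 (0.41), Atm (-0.45), Chek1 (-0.70), Parp1 (0.20), Lig4 (0.49) and Ercc1 (0.43) were among the 32 genes not called.

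T11 differed from the 3 tumors for several of these genes. Fancg was 138 and Rad51c 64.9 in T11, each the lowest of the 13 p53-/- tumors, while Hus1 was 506, and Rad9a was 1153, second highest of the 13. With T11 added in a fit over all 41 tumors with a genotype term, 4 of the 42 genes were called higher, where 16.1% of genes were, and 0 lower, where 15.2% were. These 4 were Hus1, Xrcc3, Lig4 and Ercc1, so 8 of the 10 calls, among them Fancg, Rad51d, Rad9a and all other lower calls, were lost. Lig4 and Ercc1 were not called within the 28 tumors. T11, at 584 and 5849, was the highest of the 13 p53-/- tumors for both. Leaving out PLK2null-732, PLK2null-743 or PLK2null-733 left 5, 6 or 7 of the 42 genes called.

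The 3 claudin-low tumors also differed in cell content, and the part of this in the gene differences was not tested. The summed level of 6 epithelial markers was 45.7 to 291, against 13539 to 119162 in the 25 others, and all 6 were called lower. The lowest of them was Cldn3, at 1.13 to 19.3. The sum of 6 endothelial markers was 165585 to 186496, against 2572 to 78025, and all 6 were called higher, as were all 6 of the T cell and all 6 of the B cell markers. Of 6 fibroblast markers 3 were called lower and 0 higher, with a sum of 14888 to 56137 against 12210 to 280437. In T11 the epithelial sum was 33742, the endothelial sum 6876 and the fibroblast sum 225122. The proliferation score was -0.42 ± 0.17 (SD, n = 3) against 0.06 ± 0.35 (SD, n = 25), with p = 0.027 in a 2-sided exact permutation test over 3276 splits. The exact p was 0.051 without PLK2null-732 and 0.15 without PLK2null-743. In bulk tumors fewer cells of a type and less RNA per cell cannot be told apart. Across all tested genes the deviations of the 3 tumors correlated at 0.93 to 0.96 with each other at 0.60 to 0.63 with PLK2null-7763 and at 0.34 to 0.38 with T11, and whether they are related is not given in the labels. PLK2null-7763, one of the 25 others, also had a low epithelial score (-3.05) and high endothelial (3.86) and B cell (4.01) scores, and without it the calls were again 6 higher and 4 lower. Of the 61 other pathway genes, 4 (6.56%) were called higher and 8 (13.1%) lower, below the 20.2% and 17.1% of all genes. Among the called ones, Rad51ap1 (1.95), Mre11a (1.11), the nuclease that trims breaks, and Fancf (0.89) rose most, and Ddb2 (-1.08), Lig3 (-0.99) and Polb (-0.88) fell most.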

How the data were processed

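RNA-seq was read from 41 tumors (28 Plk2-/-; p53-/-, 13 p53-/-). Per the labels, libraries were made with a TruSeq mRNA kit. The submitters' processing notes name STAR 2.7.6a, Salmon 1.4.0, Picard 2.22.4, SAMtools and mm10, and the gene annotation and strand setting are not given in the sources used here. The authors deposited a linear signal, estimated counts divided by the upper quartile of each tumor. Whole reads could not be recovered (77.9 to 80.5% of nonzero values within 0.1 read of a whole multiple), so no count test was run.

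Genes with a mean of at least 10 were compared by limma 3.58.1 (R 4.3.3) after a log2(value + 1) transform, and p-values were adjusted by Benjamini-Hochberg over all genes tested. Fold changes are on that scale, which understates low genes. Claudin-low status follows the study. Scores are means of centered log2 values and were tested by permutation (100000 resamples or 3276 exact splits) in Python 3.11.15 with scipy 1.17.1. Lengths came from GENCODE vM21, which matched 96.5% of genes tested. On simulated data for the genotype comparison, 57 of 100 genes changed by 1 and 80 of 100 changed by 2 on the log2 scale were recovered over 16752 genes. For the claudin-low comparison these were 32 and 72 of 100 over 16757 genes. The simulated tumors were independent of one another, which the real ones may not be.

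The 42 genes and all lists were chosen with earlier results of these data known. Values are given for called genes (at most 10 per direction), the genes with the largest SD, some uncalled genes of each role, and at most 3 other pathway genes per direction. Settings tried included other pseudocounts, filters, scalings and left-out tumors.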

Additional observations from a re-analysis of the deposited data

How the results depend on the processing

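In the genotype comparison, 26 of the 42 genes were called. Pseudocounts, filters, a limma trend, quantile or median of ratios scaling and leaving out single tumors gave totals between 23 and 26, and centering by length gave 18. Without p53null-7435 the lower calls fell from 4 to 1. Chosen after seeing the data, centering by length and GC content together gave 16. With the 7 latency tumors only, 10 of the 42 genes and 2942 of all genes were called in place of 6802, and fewer tumors entered. Calls for 9 genes held in all 16 fits.

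In the claudin-low comparison 10 genes were called, 4 in the fit over 41 tumors, and 5 to 7 when a claudin-low tumor was left out. Xrcc3 and Hus1 were called in all 15 fits. The proliferation difference of -0.48 ran from -0.54 to -0.38 without 1 of these tumors, with exact permutation p up to 0.15 without PLK2null-743. No called gene changed sign in either comparison. No paired analysis was possible because the groups share no replicate numbers in the labels.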
